A study of Homo sapiens with 12 samples.

Results

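The subunits of the SWI/SNF chromatin remodelers were followed in 2 ovarian cancer cell lines treated with THZ1, a covalent inhibitor of the transcriptional kinase CDK7 that also binds the related kinases CDK12 and CDK13. The members were the 10 rows named SMARCA4, SMARCA2, SMARCC1, SMARCB1, SMARCD1, SMARCE1, ARID1A, ARID1B, ARID2 and PBRM1, out of 23621 gene rows, and all 10 were found in the tables of both lines. KURAMOCHI (Ku) and COV362 (Cov) cells, both untransduced, were treated for 6 hr with the vehicle DMSO, with 50 nM THZ1 or with 250 nM THZ1. Each of the 3 treatments was prepared in biological duplicate in each line, which gave 12 libraries. Both are established cell lines, so each line stands for a single tumor.

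SWI/SNF remodelers use the energy of ATP to slide or evict nucleosomes and so open promoters and enhancers. Each complex holds 1 of 2 alternative ATPases, SMARCA4 (BRG1) or SMARCA2 (BRM), core subunits such as SMARCC1 and SMARCD1, and subunits that set the type of complex. SMARCB1 and SMARCE1 belong to the core of the BAF and PBAF types and are absent from the non-canonical type. ARID1A and its paralog ARID1B define the BAF complex, and ARID2 together with PBRM1, a protein with several bromodomains, defines the PBAF complex. ARID1A is frequently mutated in clear cell and endometrioid ovarian carcinomas, and loss of SMARCA4 together with SMARCA2 silencing marks small cell carcinoma of the ovary, hypercalcemic type.

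Values are FPKM, read counts scaled to transcript length and library depth, which the authors normalized to ERCC spike-in RNAs after adjusting RNA input by cell number. FPKM are per length, so levels of different genes can be set side by side, but the depth of the libraries is unknown. Replicates correlated across 14251 tested genes with Pearson's r of 0.968 to 0.983 on the log2 scale, and the median deviation of the spike-ins from DMSO was at most 0.0451 log2 units in any library. In DMSO, PAX8 stood at 132 to 140 FPKM in Ku cells and 120.3 to 128 FPKM in Cov cells, and KRT8 and KRT18 were at 744 FPKM or more in both lines. WT1 was at 53.4 FPKM or more in Ku cells but below 1 FPKM in Cov cells, and MUC16 was below 1 FPKM in Ku cells. These serous markers were thus each missing from 1 line. The epithelial marker EPCAM was low in Ku cells, at 4.01 to 4.24 FPKM, and stood at 149.9 to 174.1 FPKM in Cov cells. The leukocyte markers PTPRC and CD3E and the endothelial marker PECAM1 stayed below 0.4 FPKM. The macrophage marker CD68 was at 1.77 to 2.84 FPKM in Ku cells and 3.71 to 4.53 FPKM in Cov cells. CDH5, also an endothelial marker, was at 7.50 to 8.67 FPKM in both lines. Of the fibroblast markers, COL1A1 was at 2.46 to 3.20 FPKM in both lines and DCN below 0.4 FPKM. COL1A2 was at 40.4 to 44.1 FPKM in Cov cells and below 0.4 FPKM in Ku cells. In these bulk libraries, fewer cells with a transcript and less transcript per cell cannot be told apart.

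In DMSO SMARCA4 and the core subunits were among the most abundant members, and the other ATPase, SMARCA2, was the least abundant. In Ku cells SMARCB1 stood highest, at 84.5 and 80.9 FPKM in the 2 libraries. It was followed by SMARCC1, SMARCA4, SMARCE1, SMARCD1 and ARID1A with means from 57.1 down to 42.5 FPKM, and each neighbour in this run overlapped the next in range. PBRM1 at 14.3 and 12.2 FPKM and ARID1B at 14.2 and 11.8 FPKM also overlapped, ARID2 was lower at 8.18 and 6.47 FPKM, and SMARCA2 was last at 0.903 and 1.00 FPKM. In Cov cells SMARCD1, SMARCC1 and SMARCB1 led with overlapping ranges and means of 85.2, 79.9 and 78.7 FPKM. Below them the order was SMARCE1, SMARCA4, ARID1A, ARID1B, PBRM1, ARID2 and SMARCA2, with no overlap between neighbours. ARID1A was at 45.9 and 39.1 FPKM in Ku cells and at 19.5 and 20.9 FPKM in Cov cells, and SMARCA2 was at 9.22 and 10.2 FPKM in Cov cells. The tables of the lines were normalized separately, so these line differences were not tested.

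**Figure D1:**
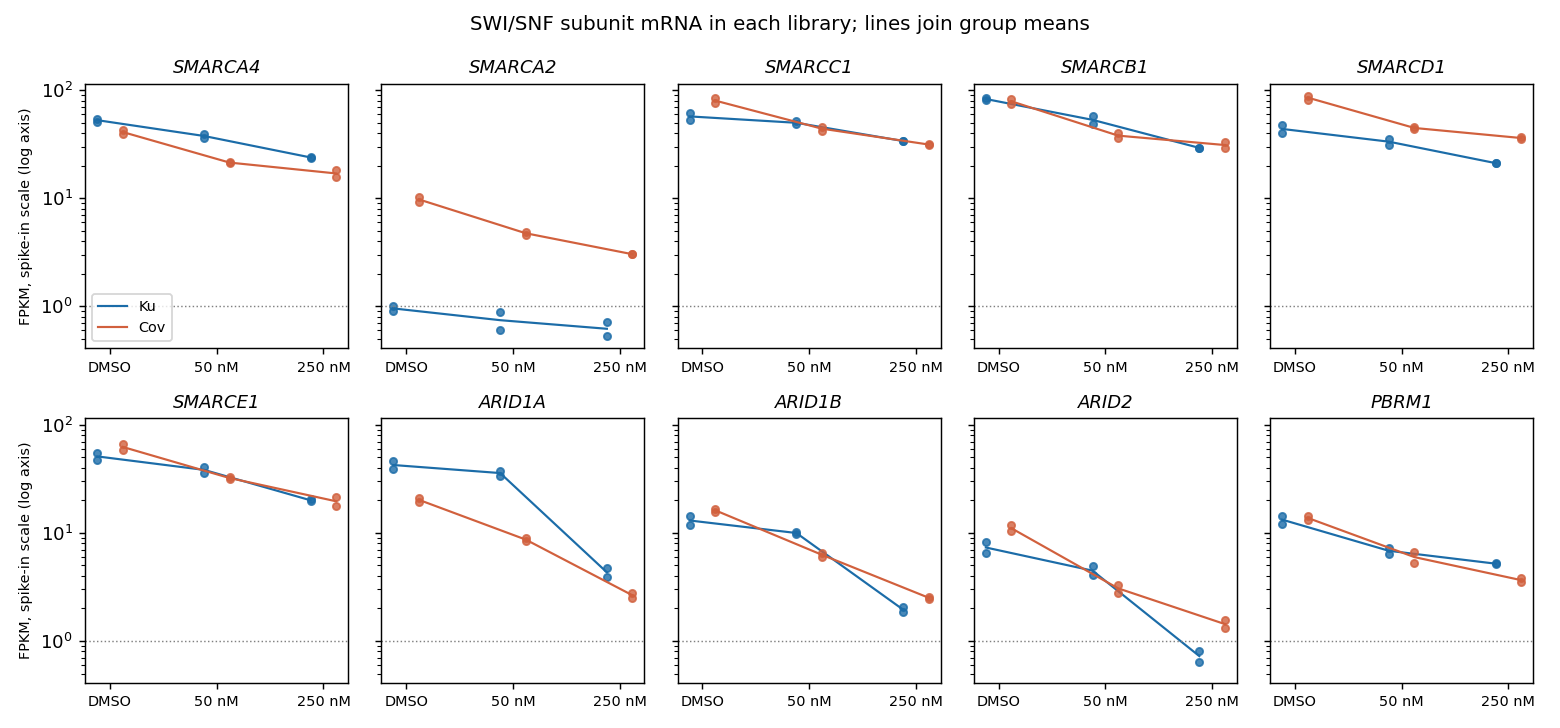
Each panel plots 1 subunit, with spike-in normalized FPKM on a log axis against DMSO, 50 nM and 250 nM THZ1. Points are libraries, lines join the means of 2 replicates, and the dotted line marks 1 FPKM. ARID1A, ARID1B and ARID2 drop more steeply than the other members between DMSO and 250 nM. Ku SMARCA2 lies near or under 1 FPKM throughout.

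After 250 nM THZ1 the mRNA of nearly every member was lower on the spike-in scale, and the 3 ARID subunits fell the most in both lines. Calls required, on log2(FPKM + 1), a change beyond 0.5 in either direction together with a limma adjusted p under 0.001. Among Ku libraries 9 of 10 members were called lower and none higher, where 68.6% of all tested genes were lower and 0.0491% higher. Among Cov libraries all 10 were lower, beside 84% of tested genes, with 0.105% of genes higher and no member. The median log2 fold change of the members was -1.25 for Ku and -1.52 for Cov, where all tested genes had medians of -1.11 and -1.31. A lower call was thus the rule for tested genes, and the members' counts stand near that background. All 10 members had both treated libraries below both DMSO libraries in each line, as did 95.9% of tested genes in Ku cells and 95.6% in Cov cells. Without the spike-in scale the split changed: median-of-ratios scaling left 3 members lower and 1 higher for Ku, with 3 lower and 0 higher for Cov, and scaling to equal medians gave 3 lower and 4 higher for Ku and 3 lower and 3 higher for Cov. Of all tested genes, median-of-ratios scaling called 21.7% lower and 8.54% higher for Ku and 19.9% and 7.25% for Cov, and equal medians called 11.6% lower and 26.9% higher for Ku and 11.3% and 26.4% for Cov. At an adjusted p under 0.05 on the spike-in scale the lower counts at 250 nM were 9 and 10, where 81.3% and 88.3% of tested genes were lower. The 3 lower members were ARID1A, ARID1B and ARID2 in every one of these 4 fits. Under median-of-ratios scaling 4 members in Ku cells and 3 in Cov cells had a higher value at an unadjusted limma p under 0.05. The share of all tested genes at that threshold was not taken.

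ARID1A, the DNA-binding subunit most often present in BAF, had the largest fall among the members in both lines on the log2(FPKM + 1) scale. In Ku cells it went from 45.9 and 39.1 FPKM in DMSO to 3.88 and 4.75 FPKM at 250 nM. The Cov libraries went from 19.5 and 20.9 FPKM to 2.52 and 2.77 FPKM. The treated libraries lay far below the DMSO libraries in each line, and the means were 9.84-fold lower in Ku cells and 7.64-fold lower in Cov cells. The log2 fold change was -3.03 ± 0.128 (SE, limma adjusted p = 9.54e-06) in Ku cells, where 3.4% of tested genes fell more. It was -2.54 ± 0.0987 (limma adjusted p = 9.39e-07) in Cov cells, where 8.28% of tested genes fell more.

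ARID1B, which takes the place of ARID1A in a share of BAF complexes, fell alongside it. Its level in Ku cells was 14.2 and 11.8 FPKM in DMSO and 1.85 and 2.06 FPKM at 250 nM. The Cov values were 15.6 and 16.8 FPKM in DMSO and 2.47 and 2.56 FPKM at 250 nM. The groups did not overlap, and the paralog was 6.68-fold lower in Ku cells and 6.44-fold lower in Cov cells. Its log2 fold changes were -2.24 ± 0.134 (SE, limma adjusted p = 2.12e-05) and -2.29 ± 0.0979 (limma adjusted p = 1.07e-06).

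ARID2, the ARID subunit of PBAF, moved by a similar amount from a lower start. In Ku cells it was at 8.18 and 6.47 FPKM in DMSO and at 0.641 and 0.809 FPKM at 250 nM, below the 1 FPKM that served as the minimum for testing. The Cov libraries held 10.4 and 11.7 FPKM in DMSO and 1.56 and 1.31 FPKM at 250 nM. By the means the fall was 10.1-fold for Ku and 7.70-fold for Cov, slightly more than that of ARID1A. The log2 fold changes were -2.27 ± 0.162 (SE, limma adjusted p = 3.78e-05) and -2.31 ± 0.120 (limma adjusted p = 1.84e-06), and adding 1 FPKM before the logarithm understates the change of a gene this low.

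At 250 nM against DMSO the 3 ARID genes kept their direction and their call under both rescalings. Scaling to equal medians left the median of all tested genes at 0.29 (Ku) and 0.31 (Cov), so values and signs under it are given relative to the median of all tested genes here and in what follows, while calls are on the values as scaled. On this relative scale ARID1A was at -1.52 in Ku cells and -1.06 in Cov cells. ARID1B was at -0.92 and -0.83, and ARID2 at -1.24 and -0.9985. Under median-of-ratios scaling the log2 fold changes were -1.82 and -1.19 for ARID1A, -1.16 and -0.95 for ARID1B, and -1.39 and -1.08 for ARID2, in Ku and Cov cells. All of these were called lower. None of the 3 lost its call at 250 nM when any 1 library of its line was left out.

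As the 2 BAF paralogs ARID1A and ARID1B fell together while SMARCA4 moved like the median gene, their upstream sequences are shown, with the GC box (GGGCGG or its reverse complement CCGCCC) in capitals. The windows are the 250 bases before a RefSeq transcript start, from the GRCh38.p14 table, placed in GRCh37 by an exact match. The ARID1A stretch covers chr1:27022256-27022505 on the plus strand, inside the annotated gene span (1:27019727-27108595) but outside annotated exons. The ARID1B stretch covers chr6:157096910-157097153 and the SMARCA4 stretch chr19:11071456-11071607, both on the plus strand and both cut where the first annotated exon begins.
ARID1A: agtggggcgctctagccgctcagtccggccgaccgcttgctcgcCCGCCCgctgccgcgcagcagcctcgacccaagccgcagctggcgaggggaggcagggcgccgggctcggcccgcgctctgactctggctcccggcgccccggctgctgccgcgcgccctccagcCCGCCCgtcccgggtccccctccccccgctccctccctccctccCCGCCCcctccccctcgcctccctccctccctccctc
ARID1B: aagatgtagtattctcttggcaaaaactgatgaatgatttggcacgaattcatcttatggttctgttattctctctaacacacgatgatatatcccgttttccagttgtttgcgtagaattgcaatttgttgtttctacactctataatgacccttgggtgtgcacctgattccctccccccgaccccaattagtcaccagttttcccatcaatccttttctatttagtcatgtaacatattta
SMARCA4: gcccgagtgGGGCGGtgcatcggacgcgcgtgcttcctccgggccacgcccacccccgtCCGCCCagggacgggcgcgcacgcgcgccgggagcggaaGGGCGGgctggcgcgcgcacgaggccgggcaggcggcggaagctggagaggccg
The ARID1A window had a GC content of 80.4% with 30 CpG and 3 GC boxes. This ARID1B window had a GC content of 38.8% with 5 CpG and no GC box, while a second ARID1B start at chr6:157098262-157098511, inside annotated exons, had 76% GC and 4 GC boxes. The whole SMARCA4 window had 82.4% GC, 44 CpG and 4 GC boxes, of which 3 lie in the stretch shown. Another SMARCA4 window, at chr19:11094550-11094799, had 55.6% GC, 4 CpG and no GC box. Windows were found for 8 members, 14 in all, and not for ARID2 and SMARCC1. A GC box was in 7 of the 14, against 42.6% of 35116 windows of the same length, and a CCAAT box (CCAAT on either strand) in 4, against 32% of windows. A TATA box (TATAAA) was in 1 window, against 10.7% of all windows, an E-box (CACGTG) in 1, against 6.3%, an AP-1 site (TGACTCA) in 1, against 4.2%, and an ETS core (CCGGAAG) in 1, against 8.5%, all searched on both strands. These matches describe the letters in the windows and were not tested against the response.

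PBRM1, the partner of ARID2 in PBAF, was closer to the median gene than the 3 ARID genes were, with a log2 fold change that differed from the median by -0.0925 (Ku) and -0.36 (Cov). In Ku cells it was at 14.3 and 12.2 FPKM in DMSO and 5.22 and 5.16 FPKM at 250 nM. The Cov libraries stood at 13.2 and 14.3 FPKM in DMSO and 3.81 and 3.50 FPKM at 250 nM. Both treated groups lay below DMSO, with log2 fold changes of -1.20 ± 0.130 (SE, limma adjusted p = 0.000196) in Ku cells and -1.67 ± 0.127 (limma adjusted p = 9.49e-06) in Cov cells. The Ku call was lost without DMSO replicate 1 or without either 250 nM library, and no call was left in either line under both rescalings. With equal medians PBRM1 was at 0.28 in Ku cells and -0.17 in Cov cells.

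SMARCA4, the main ATPase, followed the median gene in both lines. It was at 54.5 and 50.8 FPKM in Ku DMSO libraries and 23.5 and 24.1 FPKM after 250 nM. Cov libraries gave 39.2 and 42.5 FPKM in DMSO and 15.7 and 18.1 FPKM after 250 nM. The fall was thus 2.21-fold in Ku cells and 2.42-fold in Cov cells, and the log2 fold changes of -1.11 ± 0.0751 (SE, limma adjusted p = 3.08e-05) and -1.23 ± 0.0975 (limma adjusted p = 1.19e-05) turned to 0.19 and 0.29 under median-of-ratios scaling. Of the tested genes 49.7% fell more than SMARCA4 in Ku cells and 54.5% did so in Cov cells.

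SMARCA2, the alternative ATPase, could be followed only in Cov cells. There it went from 9.22 and 10.2 FPKM in DMSO to 3.04 and 3.01 FPKM at 250 nM, a log2 fold change of -1.41 ± 0.0999 (SE, limma adjusted p = 6.77e-06) that became -0.09 under median-of-ratios scaling and 0.02 with equal medians. The Ku libraries held 0.903 and 1.00 FPKM in DMSO and 0.708 and 0.529 FPKM at 250 nM. It was the 1 member not called in Ku cells (log2 fold change -0.27 ± 0.105, limma adjusted p = 0.0461), and both rescalings gave it a positive value there, 0.31 and 0.32. At this level the added 1 FPKM is about as large as the value itself, so the log2 value understates a change.

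The 4 core subunits were called lower in both lines on the spike-in scale, with log2 fold changes on either side of the median gene, and the values of SMARCC1 and SMARCD1 were positive under both rescalings in both lines. SMARCB1, a core subunit lost in rhabdoid tumors, went from 84.5 and 80.9 FPKM to 29.3 and 29.1 FPKM in Ku cells and from 74.3 and 83.0 FPKM to 29.3 and 32.7 FPKM in Cov cells. Its log2 fold changes were -1.47 ± 0.0880 (SE) and -1.32 ± 0.101, and 33.6% and 49.6% of tested genes fell more. SMARCE1, an HMG box subunit, went from 55.0 and 47.1 FPKM to 20.4 and 19.7 FPKM in Ku cells and from 58.2 and 66.6 FPKM to 21.4 and 17.8 FPKM in Cov cells. These 2 subunits were called lower in both lines, with log2 fold changes for SMARCE1 of -1.30 ± 0.1004 and -1.62 ± 0.116, but both had positive values in both lines with equal medians.

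SMARCC1, a scaffold subunit, kept more of its mRNA than any other called member in Ku cells. It went from 61.5 and 52.7 FPKM to 34.1 and 33.5 FPKM there, a log2 fold change of -0.74 ± 0.0897 (SE, limma adjusted p = 0.000337), and 70.3% of tested genes fell more. Under median-of-ratios scaling the sign turned and Ku SMARCC1 was called higher, at 0.58. Cov SMARCC1 went from 75.7 and 84.1 FPKM to 31.9 and 30.8 FPKM, with a log2 fold change of -1.32 ± 0.0909. SMARCD1 went from 47.3 and 40.2 FPKM to 21.3 and 20.9 FPKM in Ku cells and from 81.6 and 88.8 FPKM to 35.0 and 37.1 FPKM in Cov cells. Its log2 fold changes were -1.01 ± 0.107 and -1.22 ± 0.0838. The Ku calls of SMARCC1 and SMARCD1 were lost without either 250 nM library, and that of SMARCC1 also without DMSO replicate 1. These fits called 6, 6 and 7 members lower, beside 42.7%, 44.3% and 51.2% of tested genes.

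**Figure D2:**
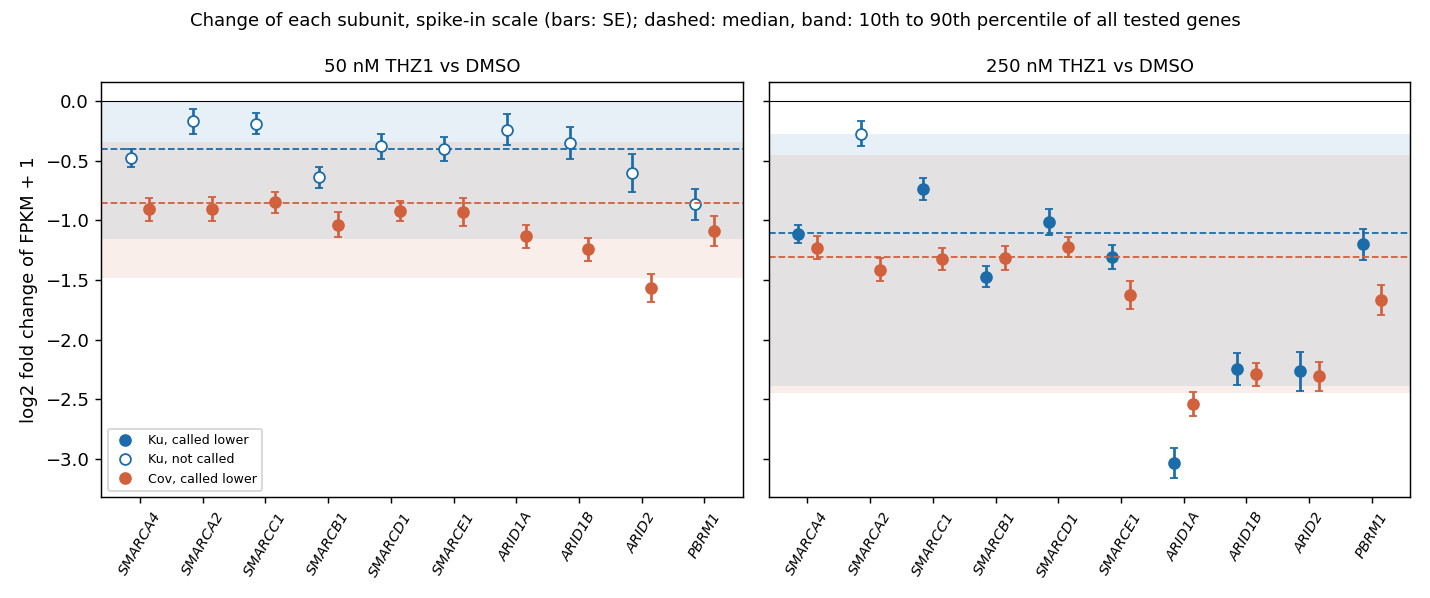
Each point is the log2 fold change of FPKM + 1 of 1 subunit against DMSO on the spike-in scale, with its SE, at 50 nM (left) and 250 nM (right). Filled points were called lower, dashed lines are the medians of all tested genes and bands span their 10th to 90th percentiles. At 250 nM ARID1A lies outside the band in both lines and ARID1B and ARID2 lie near its lower edge. Most other members lie within the band, and their sign turned under 1 or both rescalings, except that of PBRM1 in Cov cells.

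The values at the lower dose are given side by side for the lines, which were not tested against each other. At 50 nM no member was called lower in Ku cells by limma, where 11.3% of tested genes were (and 0.0842% higher). At an unadjusted limma p under 0.05, 7 members were lower, a count with no share of all tested genes to set beside it. The share of tested genes called lower fell to between 0.0421% and 0.919% when any 1 Ku library was left out, and to 0.0632% when only the 2 groups compared were fitted. At an adjusted p under 0.05 the count was 3 of 10, against 40.2% of tested genes. Cov cells had all 10 members called lower at 50 nM, where 70.5% of tested genes were lower and 0.0772% higher, and 82% were lower at an adjusted p under 0.05. Both 50 nM libraries lay below both DMSO libraries for all 10 members in each line, and for 75.8% of tested genes in Ku cells and 95.7% in Cov cells. No member was called at 50 nM under either rescaling in either line, where 4.01% (median-of-ratios) and 0.737% (equal medians) of tested genes were called lower in Ku cells and 1.03% and 0.147% in Cov cells. Leaving out Cov DMSO replicate 2 reduced the Cov count to 5, and the share of tested genes called lower to 30.3%, with the calls of SMARCA4, SMARCA2, SMARCC1, SMARCE1 and PBRM1 lost, and that of PBRM1 was also lost without Cov DMSO replicate 1.

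The step from 50 to 250 nM held most of the change of ARID1A and ARID1B in Ku cells, and of most other members. ARID1A was at 37.8 and 33.8 FPKM at 50 nM in Ku cells, 84.3% of its DMSO mean, and ARID1B at 10.2 and 9.73 FPKM, 76.6% of its DMSO mean. Only 7.9% of the log2 change of ARID1A at 250 nM and 15.6% of that of ARID1B were present at 50 nM, against 36% for the median of tested genes. Under both rescalings these 2 genes had positive values at 50 nM in Ku cells, 0.22 and 0.34 for ARID1A. ARID2, at 4.90 and 4.04 FPKM, had 26.6% of its change. SMARCC1 had 25.7%, SMARCE1 30.9%, SMARCD1 37.5%, SMARCA4 42.7% and SMARCB1 43.2%, while SMARCA2, near 1 FPKM, had 62%. PBRM1 had the opposite pattern, with 7.29 and 6.37 FPKM at 50 nM and 72% of its change already present. Its log2 fold change of -0.86 ± 0.130 (SE) at 50 nM was the largest of the members in Ku cells but missed the call (limma adjusted p = 0.00277).

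In Cov cells the change was spread over both steps. ARID1A was at 8.36 and 8.98 FPKM at 50 nM, ARID1B at 6.03 and 6.51 FPKM and ARID2 at 2.81 and 3.33 FPKM. These values lay between DMSO and 250 nM with no overlap, and 44.6%, 54.2% and 67.9% of the log2 change was present at 50 nM, against 65% for the median gene. ARID2 had the lowest log2 fold change of the members at this dose, -1.57 ± 0.120 (SE, limma adjusted p = 3.32e-05), and 7.95% of tested genes fell more. Of the other members SMARCE1 had 57.3% and SMARCB1 78.6% of its change at 50 nM.

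Tested directly, 250 nM was lower than 50 nM for 6 members in Ku cells, where 36% of tested genes were called lower and 0.0421% higher, and for 2 members in Cov cells, where 24.4% were lower and 0.0842% higher. No member was called higher. The 250 nM libraries lay below those at 50 nM for 9 members in Ku cells and 10 in Cov cells, beside 87.7% and 75.6% of tested genes. At an adjusted p under 0.05 the lower counts were 8 and 6, beside 58.2% and 41.5% of tested genes. The 6 were ARID1A, ARID1B, ARID2, SMARCB1, SMARCE1 and SMARCA4, and the 2 were ARID1A and ARID1B. ARID1A led in both lines, with a log2 fold change of -2.79 ± 0.128 (SE, limma adjusted p = 5.14e-05) in Ku cells, where 0.919% of tested genes fell more, and -1.41 ± 0.0987 (limma adjusted p = 6.57e-05) in Cov cells, where 5.78% did. Under median-of-ratios scaling the 3 ARID genes stayed called in Ku cells and ARID1A in Cov cells, and with equal medians the same 3 in Ku cells, where PBRM1 was called higher, and none in Cov cells. Of all tested genes, median-of-ratios scaling called 11.7% lower and 1.39% higher for Ku and 7.8% and 0.519% for Cov at this step, and equal medians 6.55% lower and 6.46% higher for Ku and 4.95% and 3.16% for Cov. The Ku count fell to 1 when any 1 of the 50 nM or 250 nM libraries was left out, with only ARID1A left, while the share of tested genes called lower fell to between 5.55% and 11.2%. SMARCB1 also lost its call without either Ku DMSO library. The Cov count fell to 1, again ARID1A, without either 250 nM library, where 11.9% and 10.7% of tested genes were called lower.

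Ratios between subunits within a library do not depend on the scaling of that library. The smallest p that an exact permutation test, two-sided, can reach for 2 against 2 is 0.33, which is the p of each ratio whose groups did not overlap. ARID1A to SMARCA4 stood at 0.841 and 0.768 in Ku DMSO libraries and at 0.165 and 0.197 after 250 nM, and in Cov cells it went from 0.498 and 0.491 to 0.160 and 0.153. The treated ratios lay below the DMSO ratios in both lines. On the log2 scale the change was -2.16 for Ku and -1.66 for Cov. It was -1.59 and -1.41 for ARID1B to SMARCA4 and -2.19 and -1.67 for ARID2 to SMARCA4. PBRM1 to SMARCA4 changed by less, -0.20 and -0.64, also with no overlap. At 50 nM the Ku ratios to SMARCA4 were higher than in DMSO for ARID1A and ARID1B, by 0.24 and 0.11, and changed by -0.22 for ARID2 and -0.47 for PBRM1. The Cov ratios changed by -0.28, -0.43, -0.91 and -0.28 in the same order, all with no overlap. These 4 ratios to SMARCA4 were chosen after the values were seen.

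At 250 nM the mRNA ratio of the PBAF-defining pair shifted toward PBRM1, and protein was not measured in these libraries. PBRM1 to ARID2 was 1.75 and 1.89 in Ku DMSO libraries and 8.15 and 6.38 after 250 nM, a log2 change of 1.99. In those treated Ku libraries ARID2 was at 0.641 and 0.809 FPKM, under the 1 FPKM minimum for testing. The Cov ratio was 1.28 and 1.22 in DMSO and 2.44 and 2.68 after 250 nM, a log2 change of 1.04. Both treated groups lay above DMSO. At 50 nM the Cov ratio was already higher at 1.87 and 2.01, while the Ku ratio was lower at 1.49 and 1.58.

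Between the BAF paralogs, ARID1A mRNA fell more than ARID1B mRNA at 250 nM. ARID1A to ARID1B was 3.23 and 3.30 in Ku DMSO libraries and 2.10 and 2.31 after 250 nM, a log2 change of -0.57. The Cov ratio went from 1.25 and 1.24 to 1.02 and 1.09, a log2 change of -0.25. At 50 nM this ratio was above DMSO in both lines, by 0.14 in Ku cells and 0.15 in Cov cells on the log2 scale. ARID1A to ARID2 was at 5.61 and 6.04 in Ku DMSO libraries and 6.06 and 5.87 after 250 nM, and in Cov cells at 1.89 and 1.78 and then 1.62 and 2.12. These groups overlapped in both lines, while at 50 nM the ratio was above DMSO with no overlap, by 0.46 in Ku cells and 0.63 in Cov cells on the log2 scale.

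The 2 remaining ratios gave no common direction at 250 nM. SMARCA4 to SMARCA2 was 60.4 and 50.6 in Ku DMSO libraries and 33.2 and 45.5 after 250 nM, where SMARCA2 was near or under 1 FPKM. The Cov ratio was 4.26 and 4.16 and then 5.17 and 6.01, so the treated ratio was lower in Ku cells and higher in Cov cells. SMARCC1 to SMARCB1 rose from 0.728 and 0.651 to 1.16 and 1.15 in Ku cells. At 50 nM this ratio was above DMSO with no overlap in both lines, by 0.45 in Ku cells and 0.19 in Cov cells on the log2 scale. For Cov it was 1.02 and 1.01 in DMSO and 1.09 and 0.941 after 250 nM, with overlap.

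**Figure D3:**
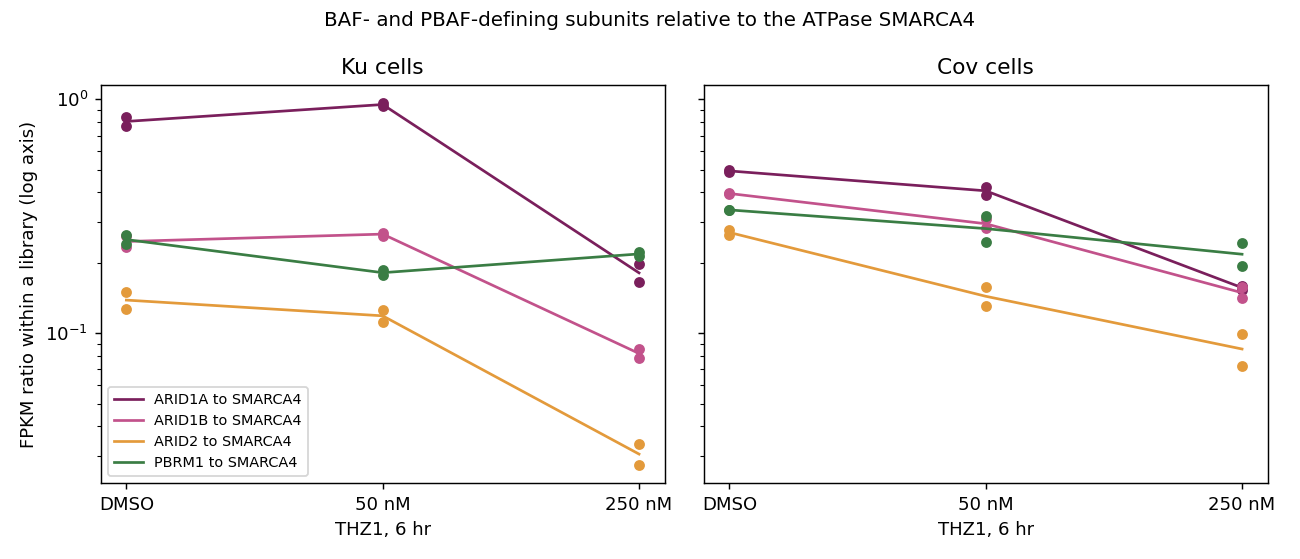
The FPKM ratio of each BAF- or PBAF-defining subunit to SMARCA4 within a library is plotted on a log axis against the THZ1 dose, for Ku cells (left) and Cov cells (right). Points are libraries and lines join means of 2. From DMSO to 250 nM the ratios of ARID1A, ARID1B and ARID2 drop in both lines, while that of PBRM1 drops by less.

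Summed over the members, the ARID genes took a smaller part of SWI/SNF mRNA after 250 nM. ARID1A, ARID1B and ARID2 together made up 17.7% and 16.8% of the summed FPKM of the 10 members in Ku DMSO libraries. The share was 19.1% and 18.1% at 50 nM and 4.52% and 5.42% at 250 nM. The Cov share was 11.4% and 11.3% in DMSO, 8.32% and 8.94% at 50 nM and 4.46% and 4.43% at 250 nM. The share thus fell at both steps in Cov cells and at the second step in Ku cells, with no overlap between DMSO and 250 nM libraries.

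The ARID genes also have the longest transcripts among the members. The annotated canonical transcripts were 8.60 kb for ARID1A and for ARID2 and 10.3 kb for ARID1B, with PBRM1 next at 7.99 kb and the others at 3.28 to 6.35 kb. The median of 11999 tested protein-coding genes was 3.34 kb. Spearman's rho between transcript length and the 250 nM log2 fold change was, across the 10 members, -0.52 for Ku and -0.81 for Cov, and -0.14 and -0.19 across the tested genes. These correlations are across genes that share libraries, genes are not independent replicates, and no p is given. Over the gene span, which runs from 15.5 kb for SMARCD1 to 434.8 kb for ARID1B, rho across the members was 0.10 for Ku and -0.38 for Cov. The motif ATTTA, found in many unstable mRNAs, occurred 3 times in the 3' UTR of ARID1A, 13 times in that of ARID1B, 9 times in that of ARID2 and 15 times in that of PBRM1. It occurred 7 times in SMARCE1 and 0 to 3 times in the other members, against a median of 2 over the tested genes. The part of transcript length or of these motifs in the falls was not tested.

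**Figure D4:**
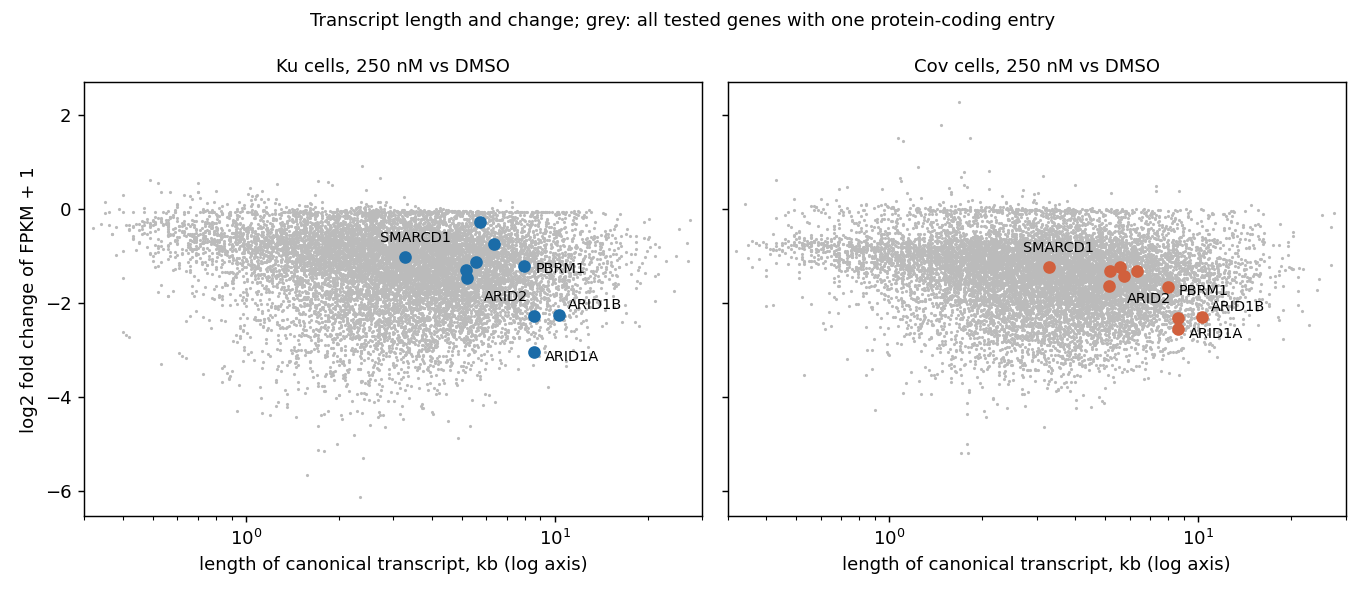
The log2 fold change of FPKM + 1 at 250 nM against DMSO, on the spike-in scale, is plotted against the length of the canonical transcript in kb on a log axis, for Ku cells (left) and Cov cells (right). Grey points are 11999 tested genes and colored points the 10 members, 5 of them named. The 3 ARID genes lie at the right and low, below PBRM1.

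The genes lie on separate chromosomes for the most part, in GRCh37. The other member spans are SMARCA4 at 19:11071608-11190102, SMARCA2 at 9:1980290-2193624, SMARCB1 at 22:24129118-24180196 and SMARCD1 at 12:50478983-50494490. SMARCC1 lies at 3:47626759-47823596, PBRM1 at 3:52579368-52719933, SMARCE1 at 17:38781214-38804906, ARID1B at 6:157097154-157531913 and ARID2 at 12:46123489-46301823. The libraries were stranded, but whether reads were counted by strand is not given in the sources used here. Exons of 6 members share bases with another annotated gene, most of all SMARCE1 with ENSG00000264058 on the same strand, over 3487 of 18470 bases, and SMARCB1 with DERL3 on the opposite strand, over 2923 of 16526 bases. Reads from such stretches could be counted for either gene. ARID2, SMARCA4, SMARCC1 and SMARCD1 share none.

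The other subunits of the family gave a like picture, with a few falling as far as the ARID genes. Of 19 listed, 18 were tested, and at 250 nM 15 (Ku) and 17 (Cov) were called lower, none higher, with medians of -1.40 and -1.28. These counts stand near the 68.6% and 84% of all tested genes called lower, whose medians were -1.11 and -1.31. As for the members, these counts depend on the spike-in scale: median-of-ratios scaling gave 5 lower with 2 higher for Ku, and 3 lower with 0 higher for Cov, and equal medians gave 2 lower with 6 higher for Ku and 2 lower with 7 higher for Cov. The shares of all tested genes under these scalings were 21.7% lower with 8.54% higher and 19.9% with 7.25%, and then 11.6% lower with 26.9% higher and 11.3% with 26.4%. The lowest value in both lines was that of DPF2, a PHD finger subunit of BAF. DPF2 went from 55.6 and 47.5 FPKM to 7.01 and 7.44 FPKM in Ku cells and from 58.8 and 66.4 FPKM to 9.21 and 9.06 FPKM in Cov cells. Its log2 fold changes were -2.67 ± 0.0965 (SE, limma adjusted p = 7.39e-06) and -2.65 ± 0.0905 (limma adjusted p = 8.16e-07), and it stayed called lower under both rescalings in both lines. The same held for GLTSCR1L (BICRAL), a subunit of the non-canonical complex, at -2.10 ± 0.174 in Ku cells and -2.35 ± 0.115 in Cov cells.

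Among the 3 lowest values of a line were also BCL7B in Ku cells at -2.16 ± 0.0872 (SE) and BRD7, a bromodomain subunit of PBAF, in Cov cells at -1.85 ± 0.104. At the other end in Ku cells were DPF3, at -0.63 and not called from 0.747 and 1.11 FPKM in DMSO, ACTL6A at -0.65 and SMARCC2 at -0.76, not called. In Cov cells they were BCL7C at -0.76, ACTB at -0.91 and SMARCD3 at -1.02, not called. ACTL6A and ACTB are the actin-related protein and the actin of the complex, and ACTB has its main role in the cytoskeleton. With equal medians BCL7B and DPF3 in Ku cells and BRD7 in Cov cells were negative, at -0.57, -0.28 and -0.15, and the others were positive.

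The paralogs of core members can take their place in the complex. SMARCC2, the partner and alternative of SMARCC1, was at 14.97 and 13.7 FPKM in Ku DMSO libraries and 7.49 and 8.65 FPKM after 250 nM, and at 49.0 and 55.2 and then 23.3 and 23.8 FPKM in Cov cells. Its log2 fold change was -0.76 ± 0.121 (SE, limma adjusted p = 0.00116, not called) in Ku cells and -1.11 ± 0.0897 (limma adjusted p = 1.28e-05) in Cov cells. SMARCD2 fell by 1.495 and 1.28 on the log2 scale, and SMARCD3 was at -0.76, called, in Ku cells. Equal-median scaling gave positive values for all 3 paralogs in both lines.

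**Figure D5:**
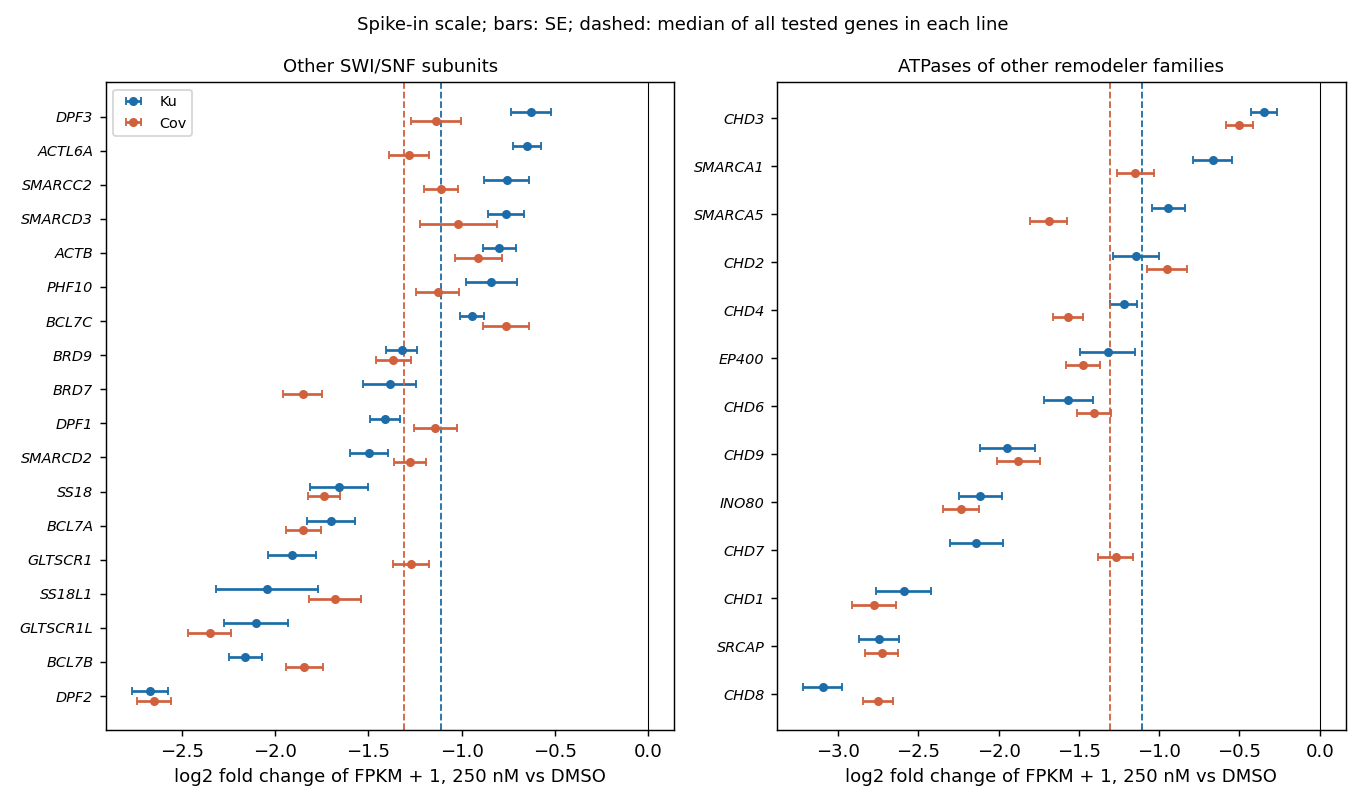
Each gene's log2 fold change of FPKM + 1 at 250 nM against DMSO, on the spike-in scale, is plotted with its SE for other SWI/SNF subunits (left) and for ATPases of other remodeler families (right). Dashed lines mark the medians of all tested genes. DPF2 on the left and CHD8, SRCAP and CHD1 on the right lie lowest, and these 4 stayed lower under both rescalings. CHD3, at the top on the right, turned positive there.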

How the data were processed

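RNA-seq libraries (TruSeq Stranded mRNA, single-end reads of 75 bases) were made by the authors from RNA normalized by cell number and mixed with ERCC spike-ins. Per the submitters' processing notes and the study's methods, reads were aligned to hg19 with HISAT and quantified with Cufflinks tools. Their versions, the annotation and the strand setting are not given in the sources used here. The authors deposited FPKM normalized to the spike-ins, 1 table per line, with 23713 rows of which 92 are ERCC RNAs. These are not counts, so depth is unknown, no interval based on counts is given, and edgeR, which the study names, was not used. Scaling to spike-ins keeps a change shared by all genes in the values, and other scalings remove it.

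Samples were grouped by line and dose from their labels, and each line was fitted alone because the tables were normalized separately. Values were taken as log2(FPKM + 1) for 14251 genes above 1 FPKM in at least 1 of 12 libraries. All 10 members passed this filter. Ku SMARCA2 was above the minimum in 1 of its 6 libraries. The fit used limma 3.58.1 in R 4.3.3 (lmFit, eBayes with a trend), 3 groups of 2 libraries, and p-values adjusted by the Benjamini-Hochberg method over all 14251 genes. It was tested on simulated data first. Tests are two-sided and measure the spread between biological duplicates. Ratios were compared with an exact permutation test in Python 3.11.15. Each gene's change was also set against the median of all tested genes. Positions and transcripts came from GENCODE 44 lifted to GRCh37, and upstream sequences from RefSeq. A motif was searched on both strands, and motifs overlapping each other were counted separately.

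The members and gene lists were chosen with earlier results of these data known. Named were all members. Of the other subunits, SMARCC2, SMARCD2, SMARCD3, the 3 lowest and 3 highest at 250 nM in each line and any called higher were named, and of the other ATPases the 2 lowest and 2 highest. PHF10, BRD9, GLTSCR1, DPF1, SS18, SS18L1 and the extra values of named genes in the other line were added after their values were seen. The alternatives tried were a smaller pseudocount (0.1), a stricter filter (10 FPKM) or none, median-of-ratios and equal-median scaling, a replicate block, a fit of only the groups compared, no trend, an adjusted p under 0.05, and each library left out in turn. For the ratios the last was added after seeing the data.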

Additional observations from a re-analysis of the deposited data

How the results depend on the processing

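The count of members called lower moved with several settings. Median-of-ratios scaling gave 3 in Ku cells for 250 nM against DMSO, 3 for 250 against 50 nM, 3 in Cov cells for 250 nM against DMSO, 0 for 50 nM against DMSO (3 lower at an unadjusted limma p under 0.05) and 1 for 250 against 50 nM. Equal-median scaling gave 3, 3, 3, 0 (1 lower at an unadjusted p under 0.05) and 0 (2 lower). Both scalings set aside the shared change by construction. The shares of all tested genes at the unadjusted threshold were not taken. An adjusted p under 0.05 gave 3 for Ku 50 nM against DMSO and 6 for Cov 250 against 50 nM, and no minimum FPKM, which tests 23621 genes, gave 2 for Ku 250 against 50 nM, with 8.05% of genes called lower. With each library of a line left out in turn, the counts ran from 6 to 9 (Ku 250 nM against DMSO, with 42.7% to 63.5% of tested genes), 0 to 0 (Ku 50 nM against DMSO, 0.0421% to 0.919%), 1 to 5 (Ku 250 against 50 nM, 5.55% to 32.3%), 10 to 10 (Cov 250 nM against DMSO, 73.3% to 86.6%), 5 to 10 (Cov 50 nM against DMSO, 30.3% to 69.7%) and 1 to 3 (Cov 250 against 50 nM, 10.7% to 27.9%). A group left with 1 library was assumed to vary like the others. The replicate block gave 1 for Cov 250 against 50 nM. The other 40 counts, over all settings that kept every library, stayed within 1.5 times. Over all tested genes, the share called lower at 250 nM went from 68.6% (Ku) and 84% (Cov) to 21.7% and 19.9% under median-of-ratios scaling and 11.6% and 11.3% with equal medians.

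The libraries of a line share replicate numbers. Deviations of single genes in same-numbered libraries correlated by -0.0087 to 0.0003 in Ku cells and -0.0703 to 0.0282 in Cov cells. A correlation leaves out any offset shared by all genes of a library, so it cannot decide whether the numbers pair the libraries. With the replicate number as a block the counts were 9, 0 and 8 in Ku cells and 10, 9 and 1 in Cov cells, for 250 nM and 50 nM against DMSO and 250 against 50 nM, beside 66.6%, 6.94% and 34.7% of tested genes in Ku cells and 78.6%, 51% and 7.93% in Cov cells.

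The values that follow are not relative to the median gene. Under median-of-ratios scaling, log2 fold changes with a sign opposite to that on the spike-in scale were, in Ku cells for 250 nM against DMSO, SMARCA4 0.19, SMARCA2 0.31, SMARCC1 0.58 and SMARCD1 0.29. For Ku cells at 50 nM against DMSO they were SMARCA2 0.0372, SMARCC1 0.28, SMARCD1 0.0845, SMARCE1 0.0637, ARID1A 0.22 and ARID1B 0.0876. For Ku cells at 250 nM against 50 nM they were SMARCA4 0.20, SMARCA2 0.28, SMARCC1 0.30, SMARCB1 0.0087, SMARCD1 0.20 and PBRM1 0.42. For Cov cells at 250 nM against DMSO they were SMARCA4 0.29, SMARCC1 0.22, SMARCB1 0.22 and SMARCD1 0.32. For Cov cells at 50 nM against DMSO they were SMARCA4 0.0451, SMARCC1 0.12, SMARCD1 0.0504 and SMARCE1 0.031. For Cov cells at 250 nM against 50 nM they were SMARCA4 0.24, SMARCC1 0.10, SMARCB1 0.29 and SMARCD1 0.27. Under equal-median scaling, log2 fold changes with a sign opposite to that on the spike-in scale were, in Ku cells for 250 nM against DMSO, SMARCA4 0.82, SMARCA2 0.61, SMARCC1 1.204, SMARCB1 0.47, SMARCD1 0.91, SMARCE1 0.62 and PBRM1 0.57. For Ku cells at 50 nM against DMSO they were SMARCA4 0.21, SMARCA2 0.12, SMARCC1 0.50, SMARCB1 0.0605, SMARCD1 0.31, SMARCE1 0.29, ARID1A 0.45 and ARID1B 0.29. For Ku cells at 250 nM against 50 nM they were SMARCA4 0.60, SMARCA2 0.49, SMARCC1 0.70, SMARCB1 0.41, SMARCD1 0.60, SMARCE1 0.33 and PBRM1 0.79. For Cov cells at 250 nM against DMSO they were SMARCA4 0.77, SMARCA2 0.33, SMARCC1 0.71, SMARCB1 0.72, SMARCD1 0.82, SMARCE1 0.39 and PBRM1 0.14. For Cov cells at 50 nM against DMSO they were SMARCA4 0.27, SMARCA2 0.16, SMARCC1 0.35, SMARCB1 0.17, SMARCD1 0.29, SMARCE1 0.26, ARID1A 0.0035 and PBRM1 0.0091. For Cov cells at 250 nM against 50 nM they were SMARCA4 0.50, SMARCA2 0.18, SMARCC1 0.36, SMARCB1 0.55, SMARCD1 0.53, SMARCE1 0.13 and PBRM1 0.13. 
With 1 library left out, SMARCA2 in Ku cells for 250 against 50 nM ran from -0.22 to 0.017. The log2 ratio changes that turned sign ran from -0.33 to 0.13 for SMARCA4 to SMARCA2 (Ku, 50 nM), with 0.029 without DMSO replicate 1, from -0.017 to 0.089 and from -0.18 to 0.21 for ARID1A to ARID2 (Ku and Cov, 250 nM), with -0.026 without Cov DMSO replicate 2, and from -0.11 to 0.0999 for SMARCC1 to SMARCB1 (Cov, 250 nM). The groups of these ratios overlapped. The cause of these shifts was not tested. Depth is unknown, and Ku SMARCA2 and treated Ku ARID2 lie near or under 1 FPKM, where the added 1 FPKM limits any measured fold.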

Other observations

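ATPases of other remodeler families were listed as well, as genes with the same enzymatic role outside SWI/SNF. Of 14 listed, 13 were tested. At 250 nM 11 (Ku) and 13 (Cov) were called lower, none higher, with a median log2 fold change of -1.57 in each line, against -1.11 and -1.31 for all tested genes, of which 68.6% and 84% were called lower. Median-of-ratios scaling gave 6 lower with 1 higher for Ku and 4 lower with 1 higher for Cov, and equal medians gave 3 lower with 5 higher for Ku and 3 lower with 3 higher for Cov. Of all tested genes the first called 21.7% lower with 8.54% higher for Ku and 19.9% with 7.25% for Cov, and the second 11.6% with 26.9% and 11.3% with 26.4%. CHD8, a chromodomain remodeler, went from 36.8 and 31.6 FPKM in Ku DMSO libraries to 2.84 and 3.39 FPKM after 250 nM, and from 15.7 and 16.6 to 1.53 and 1.55 FPKM in Cov cells. Its log2 fold changes were -3.10 ± 0.122 (SE, limma adjusted p = 8.43e-06) and -2.75 ± 0.0949 (limma adjusted p = 8.16e-07). SRCAP, which deposits the histone variant H2A.Z, was at -2.75 ± 0.125 in Ku cells, and CHD1 at -2.78 ± 0.137 in Cov cells. These 3 were called lower under both rescalings in both lines.

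CHD3, an ATPase of the NuRD complex, changed least. It was at 56.3 and 51.2 FPKM in Ku DMSO libraries and 42.5 and 41.6 FPKM after 250 nM, a log2 fold change of -0.35 that was not called. The Cov libraries went from 39.03 and 42.9 to 28.1 and 29.1 FPKM, a called log2 fold change of -0.50, and in both lines it was called higher under both rescalings. SMARCA1, an ISWI ATPase, was at -0.67 and not called in Ku cells, and CHD2 was at -0.95 in Cov cells. Both turned positive under both rescalings. At 50 nM no gene of this list or of the other SWI/SNF subunits was called in Ku cells by limma. Of all tested genes 11.3% were called lower there. At an unadjusted limma p under 0.05, 8 of 13 and 13 of 18 were lower, and the share of all tested genes at that threshold was not taken. In Cov cells 11 and 15 were called lower at 50 nM, where 70.5% of all tested genes were.

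Set side by side by complex, a grouping made after the values were seen, the largest falls were not limited to 1 type. At 250 nM in Ku and Cov cells, the BAF subunits ARID1A, ARID1B and DPF2 were at -3.03 and -2.54, -2.24 and -2.29, and -2.67 and -2.65. The other BAF subunits listed were DPF1 at -1.41 and -1.14 and DPF3 at -0.63, not called, and -1.14. SS18 and SS18L1, which BAF shares with the non-canonical complex, were at -1.66 and -1.73 and at -2.04 and -1.68. Of the PBAF subunits ARID2 was at -2.27 and -2.31, PBRM1 at -1.20 and -1.67, BRD7 at -1.39 and -1.85, and PHF10 at -0.84, not called, and -1.13. Of the non-canonical complex GLTSCR1L was at -2.10 and -2.35, GLTSCR1 at -1.91 and -1.27, and BRD9 at -1.32 and -1.37. All 3 complexes thus held subunits well below the median gene and subunits near or above it.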
